A study of Mus musculus with 12 samples.

Results

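The T cell receptor signalling components are 41 genes that carry the antigen signal of a T cell inwards from its receptor. The members were the probe sets whose Entrez gene number maps to a symbol on a list of 41 symbols, and all 41 were found. They lay among 25206 probe sets, of which 23740 paired with exactly 1 gene and were tested. No filter on low values was used, so all 41 members entered every comparison. By role, 7 members belong to the receptor and its coreceptors, 9 are kinases, phosphatases or their regulators, and 9 are adaptors. A further 6 are downstream effectors, 5 belong to the calcineurin and NFAT branch, and 5 were listed as restraint of the signal.

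CD4 T cells of the mouse spleen were profiled on 12 arrays, 3 in each of 4 groups: Cre+ activated, Cre- activated, Cre+ baseline and Cre- baseline. Cre+ cells had the genotype Lck-Cre+;Ikzf-/-, in which a Cre recombinase under the T lineage promoter of Lck removes Ikaros, a zinc finger transcription factor. Cre- cells had the genotype Lck-Cre-;Ikzf+/+. Activated cells had 24 h with antibody to CD3 fixed to the plate and antibody to CD28 in solution, and baseline cells were labelled 0 h. The labels give no age, strain background or sex, and do not say whether the 3 arrays of a group came from separate mice, so p-values measure the spread between these samples, which may be technical. Every Cre+ array also carried the Ikaros deletion, so effects of Cre and of the deletion cannot be told apart. Antibody and a day of culture likewise came together, and their effects cannot be told apart.

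As background, a T cell receptor bound to its ligand is phosphorylated on the CD3 and zeta chains by the kinase Lck, which gives the kinase Zap70 a docking site. Zap70 then phosphorylates the scaffolds Lat and Lcp2, which gather phospholipase C gamma and Vav1. The lipid products open a Ras and protein kinase C branch and a calcium branch, in which calcineurin sends NFAT factors to the nucleus. Ubiquitin ligases of the Cbl family, diacylglycerol kinases and phosphatases hold the signal in check.

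Values are log2 expression, so a difference of 1 is a 2-fold change, and a level of one gene is not set against that of another. A gene is said to have risen, fallen or been called where limma's two-sided adjusted p, corrected over the 23740 genes by the Benjamini-Hochberg method, was under 0.05. The medians of the arrays ran from 4.04 to 4.17, and precision is limited by the number of arrays. Arrays of a group correlated across genes at 0.9764 to 0.9901 in activated Cre+ cells and 0.9717 to 0.9939 in activated Cre- cells, against 0.9916 to 0.9935 in Cre+ and 0.9923 to 0.9933 in Cre- baseline cells. The level of Ikzf1, the gene of Ikaros, was 9.98 ± 0.13 in activated Cre+ and 10.11 ± 0.10 in activated Cre- cells, and 10.36 ± 0.27 in Cre+ and 10.53 ± 0.01 in Cre- baseline cells (SD, n = 3 each). That difference was not called in either state, with limma adjusted p of 0.994 after activation and 0.972 at baseline. The labels do not give the exons removed or where the probes lie, so this level does not check the deletion. The check genes of activation, Il2ra, Irf4, Cd69, Myc and Nr4a1, all 5 rose in both genotypes, by 1.37 to 2.90 on the log2 scale in Cre+ and 1.27 to 3.74 in Cre- cells. At baseline 1 of the 5 was called higher in Cre+ than in Cre- cells (limma adjusted p = 0.00305), beside 0.505% of all genes. Of the 5 baseline differences, 3 were positive and 2 negative, and 3 had an unadjusted p under 0.05, beside 1638 of 23740 genes. The mean of the 5 was 8.34 to 8.56 on Cre+ and 7.96 to 8.18 on Cre- baseline arrays. After activation 0 of the 5 were called between genotypes, beside 0.746% of all genes.

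Promoter windows of 4 members are shown because they span the patterns described below. Rhoh was the member called between genotypes, Sit1 fell most with activation, Cd3g is the receptor chain among the members that fell in both genotypes, and Cblb rose in both. The windows come from RefSeq on build GRCm38.p6 and run from 250 bases before to 50 after an annotated start, 5′ to 3′ on the strand of the gene. They lie at chr5:65863334-65863633 on the plus strand for Rhoh, chr4:43483660-43483959 on the minus strand for Sit1, chr9:44980382-44980681 on the minus strand for Cd3g and chr16:52031299-52031598 on the plus strand for Cblb. Capitals mark TGGGAA, a core bound by Ikaros family proteins, or its complement TTCCCA.
Rhoh: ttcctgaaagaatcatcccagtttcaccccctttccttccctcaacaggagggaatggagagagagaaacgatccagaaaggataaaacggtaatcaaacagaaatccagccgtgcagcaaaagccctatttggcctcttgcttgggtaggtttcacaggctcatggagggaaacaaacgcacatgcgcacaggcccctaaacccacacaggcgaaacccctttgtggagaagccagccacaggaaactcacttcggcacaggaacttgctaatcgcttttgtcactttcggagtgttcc
Sit1: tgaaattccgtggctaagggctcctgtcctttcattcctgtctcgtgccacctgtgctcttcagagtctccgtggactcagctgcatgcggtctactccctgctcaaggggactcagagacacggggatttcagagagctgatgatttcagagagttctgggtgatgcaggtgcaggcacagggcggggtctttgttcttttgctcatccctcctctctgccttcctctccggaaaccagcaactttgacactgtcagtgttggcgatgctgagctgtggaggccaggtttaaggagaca
Cd3g: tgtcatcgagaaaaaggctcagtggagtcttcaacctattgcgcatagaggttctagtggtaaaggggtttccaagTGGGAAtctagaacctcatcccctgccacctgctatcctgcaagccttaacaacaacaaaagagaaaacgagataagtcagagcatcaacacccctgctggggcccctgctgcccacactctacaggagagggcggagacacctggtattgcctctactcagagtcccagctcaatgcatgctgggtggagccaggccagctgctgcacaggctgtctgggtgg
Cblb: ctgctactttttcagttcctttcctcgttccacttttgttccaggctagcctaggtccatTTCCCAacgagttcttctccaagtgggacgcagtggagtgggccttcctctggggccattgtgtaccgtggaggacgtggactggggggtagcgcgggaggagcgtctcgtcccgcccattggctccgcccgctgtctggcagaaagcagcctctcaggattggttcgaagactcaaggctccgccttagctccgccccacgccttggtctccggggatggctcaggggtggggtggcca
TGGGAA was searched on both strands and was the only motif searched. It occurred once in the Cd3g window and, on the opposite strand, once in the Cblb window, while these letters were not in the Rhoh and Sit1 windows. Of the 41 members, 33 had an entry in the promoter table, with 47 windows in all because 11 members had several starts. The motif stood in 13 of these 47 windows (27.7%), beside 8397 of 32851 windows of all genes (25.6%). A match describes the letters of a window and is not evidence of binding. Cd3g and Cd3d are transcribed away from each other, with 1355 bases between their starts.

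With activation a large share of the signalling genes fell in both genotypes. In Cre+ cells 23 of the 41 members fell and 2 rose, beside 20.8% of all genes called in either direction, 10.6% lower and 10.2% higher. In Cre- cells 18 members fell and 1 rose, where 18.6% of all genes were called, 9.14% lower and 9.44% higher. The same shares of all genes stand beside the counts by role and by marker list below. The mean level of the members was 8.54 to 9.46 on the arrays, while the array medians were 4.04 to 4.17. All genes thus include many at lower levels than the members, and no share was taken among genes of similar level. The median member changed by -0.54 in Cre+ and -0.47 in Cre- cells on the log2 scale, while the median of all genes tested was -0.02 in Cre+ and 0.00 in Cre- cells. The 3 activated values all lay below the 3 baseline values for 29 members in Cre+ cells (19.3% of all genes) and for 28 in Cre- cells (17.4%). They all lay above for 4 members in Cre+ cells (17.4% of all genes) and for 2 in Cre- cells (17.8%). In the 2 activation comparisons, which share no arrays but take each gene's spread from 1 fit to all 12, 18 members fell in both: Cd3g, Lck, Pag1, Ptpn6, Lat, Grap2, Themis, Skap1, Sit1, Rhoh, Plcg1, Vav1, Ppp3ca, Nfatc2, Cbl, Ubash3a, Dgka and Dgkz. Cblb rose in both. Of these calls 16 of 25 in Cre+ and 13 of 19 in Cre- cells held in all 21 alternatives. Those lost most often were Fyb (11), Malt1 (10) and Dgka (9) in Cre+ cells, and Plcg1, Dgka and Dgkz (11 each) in Cre- cells, where any 1 Cre+ baseline array left out, which changes that shared spread, also ended these 3 calls. In bulk samples, fewer cells of a type and less RNA per cell cannot be told apart. RMA puts the arrays on a common scale, so a fall is relative to the other RNA of a sample. The amount of RNA per cell is not given by these values.

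**Figure D1:**
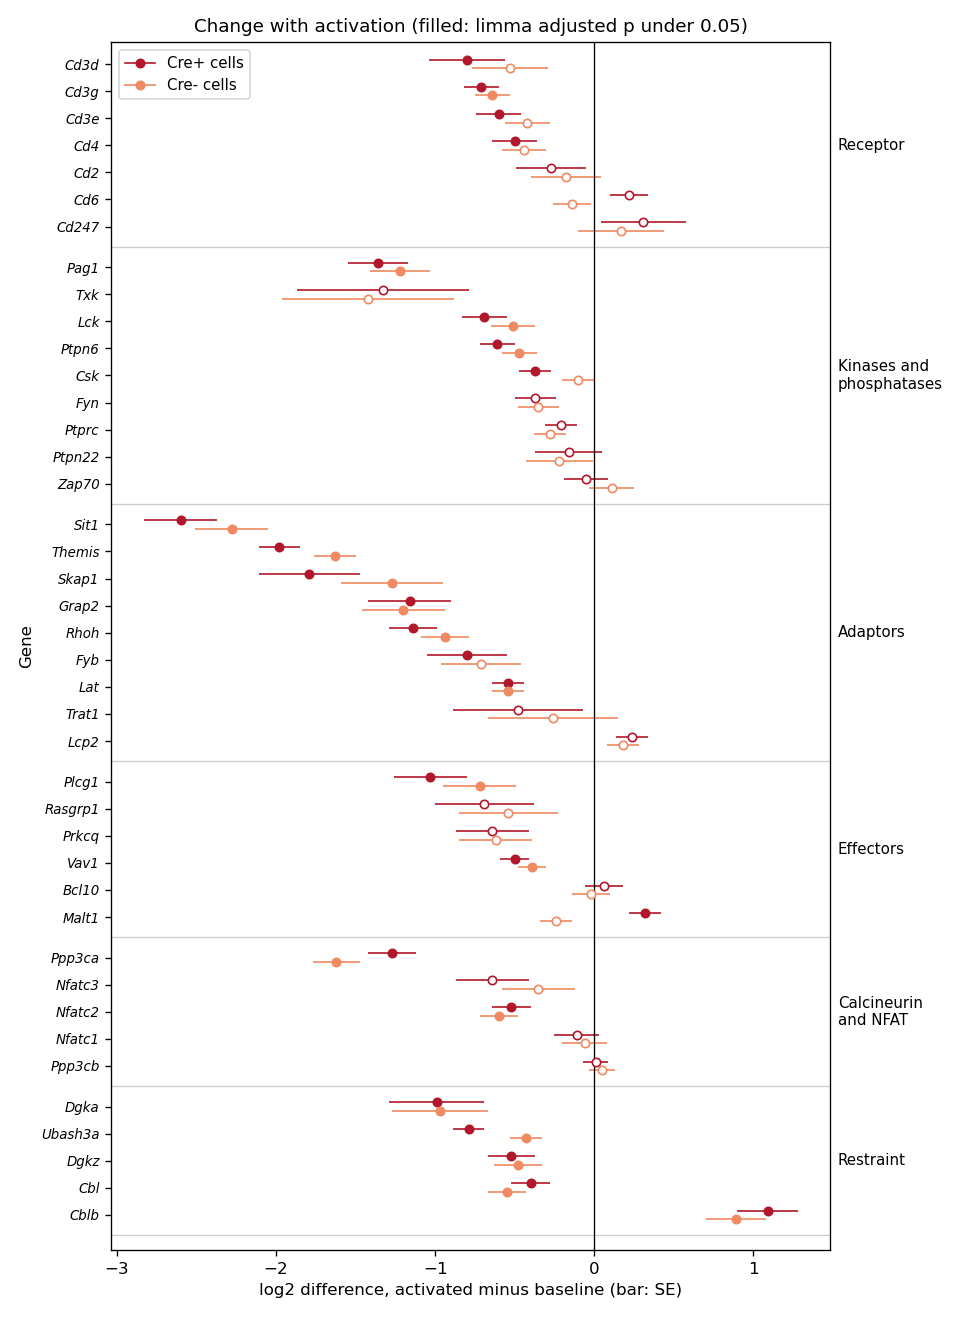
Change with activation of the 41 members, grouped by role. The x axis is the log2 difference, activated minus baseline, in Cre+ (dark red) and Cre- cells (orange), bars are the SE of the model, and filled points have a limma adjusted p under 0.05. Most points lie left of 0, from Sit1 at -2.60 in Cre+ and -2.28 in Cre- cells, and Cblb lies farthest right at 1.09 in Cre+ and 0.89 in Cre- cells.

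The adaptors, which link the receptor to its effectors, held the 2 largest falls among the members in both genotypes, Sit1 and Themis. In Cre+ cells 7 of 9 fell, with a median log2 difference of -1.14, and in Cre- cells 6 of 9, with a median of -0.94. Sit1, a transmembrane adaptor known to restrain receptor signalling, had levels of 6.08, 6.15 and 5.62 in activated Cre+ cells and 6.96, 6.92 and 6.03 in activated Cre- cells. Its baseline levels were 8.63, 8.61 and 8.41 in Cre+ and 9.02, 8.96 and 8.77 in Cre- cells. All 6 activated arrays thus read below all 6 baseline arrays, and the third activated array was the lowest in each genotype. Sit1 was 6.05-fold lower after activation in Cre+ cells (log2 difference -2.60, SE 0.23, limma adjusted p = 1.75e-05). In Cre- cells it was 4.85-fold lower (-2.28, SE 0.23, adjusted p = 5.5e-05).

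Themis, an adaptor with a known part in thymocyte selection, read 6.98, 7.38 and 7.03 in activated Cre+ cells and 7.81, 7.68 and 7.5 in activated Cre- cells. At baseline it read 9.22, 9.04 and 9.06 in Cre+ and 9.20, 9.22 and 9.46 in Cre- cells. Activated and baseline arrays did not overlap, and within the activated state every Cre+ array lay below every Cre- array. Themis was 3.94-fold lower after activation in Cre+ cells (-1.98, SE 0.13, limma adjusted p = 2.75e-06) and 3.09-fold in Cre- cells (-1.63, SE 0.13, adjusted p = 1.32e-05).

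Skap1, which couples the receptor to integrin adhesion, spread widely on the activated arrays. It read 6.83, 7.70 and 6.21 in activated Cre+ and 7.96, 7.85 and 7.08 in activated Cre- cells, against 8.94, 8.59 and 8.56 in Cre+ and 8.87, 8.90 and 8.90 in Cre- baseline cells. No activated value reached a baseline value of the same genotype. It fell by 1.79 on the log2 scale in Cre+ cells (SE 0.32, limma adjusted p = 0.00239) and by 1.27 in Cre- cells (SE 0.32, adjusted p = 0.0171). Its partner Fyb, an adaptor of the same adhesion pathway, fell by 0.80 in Cre+ cells (SE 0.25, adjusted p = 0.045) and differed by -0.71 in Cre- cells (SE 0.25, adjusted p = 0.0781).

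Grap2, which joins Lcp2 to Lat, read 8.70, 9.04 and 8.24 in activated Cre+ cells and 9.02, 8.83 and 7.91 in activated Cre- cells, against 9.68 to 9.92 in Cre+ and 9.77 to 9.82 in Cre- baseline cells. It fell by 1.16 in Cre+ cells (SE 0.26, limma adjusted p = 0.0081) and by 1.2 in Cre- cells (SE 0.26, adjusted p = 0.00761), with no overlap between states. Lat, the membrane scaffold, fell by 0.54 in each genotype (SE 0.10, adjusted p = 0.00359 in Cre+ and 0.00387 in Cre- cells). Lcp2, the cytosolic scaffold that works with Lat, was not called: it read 10.94 to 11.09 in activated Cre+ and 10.81 to 11.09 in activated Cre- cells, against 10.73 to 10.80 in Cre+ and 10.68 to 10.80 in Cre- baseline cells. The activated arrays lay above the baseline arrays for Lcp2 in both genotypes, by 0.24 in Cre+ (adjusted p = 0.129) and 0.18 in Cre- cells (adjusted p = 0.279). Trat1, a small transmembrane adaptor of the receptor complex, had the widest spread of any member in activated Cre+ cells, 6.58 to 8.39, and was not called (adjusted p = 0.491 in Cre+ and 0.753 in Cre- cells).

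**Figure D2:**
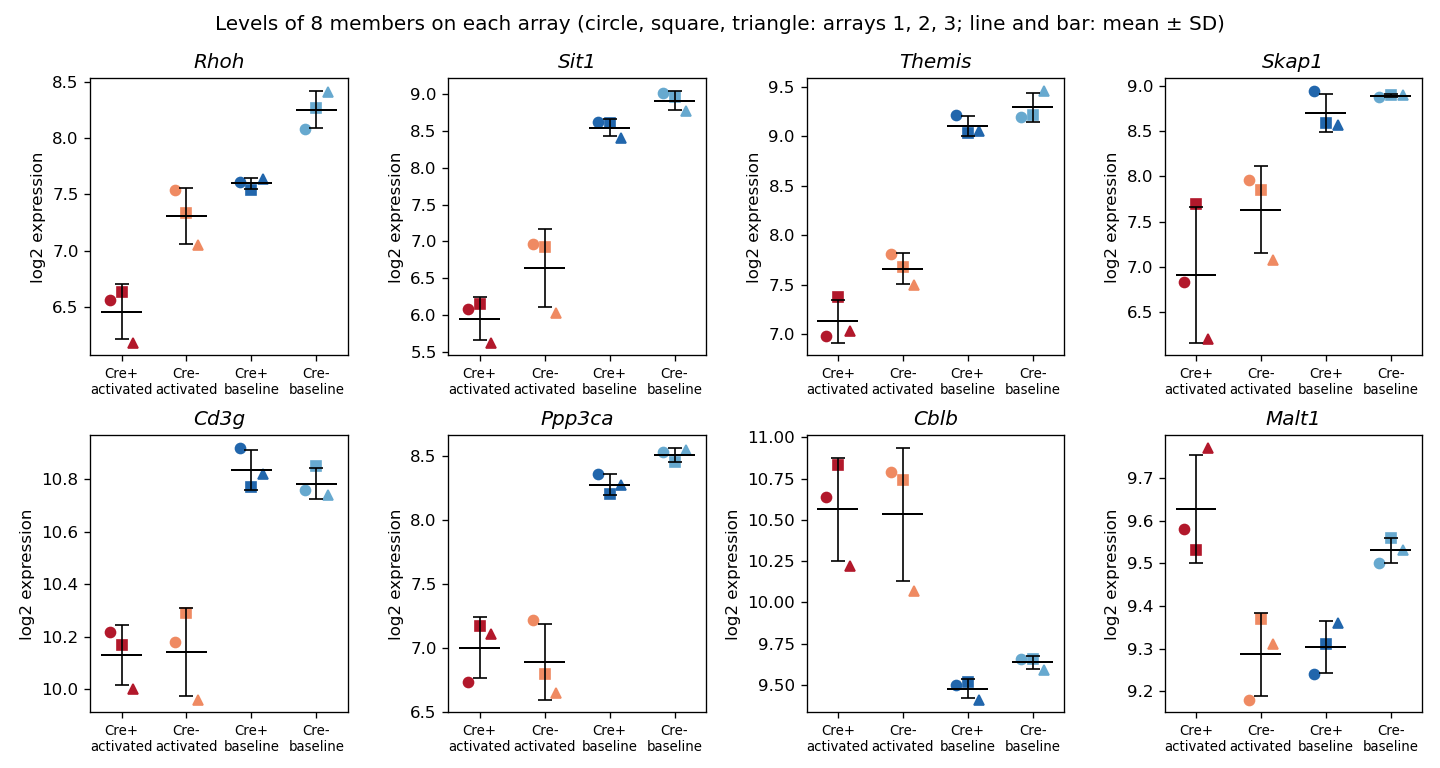
Levels of 8 members on each of the 12 arrays. Each panel plots log2 expression (y axis, own scale per gene) in Cre+ activated, Cre- activated, Cre+ baseline and Cre- baseline cells, with circle, square and triangle for arrays 1, 2 and 3 and a line and bar for the mean and SD (n = 3). Activated values lie below baseline values of the same genotype for Rhoh, Sit1, Themis, Skap1, Cd3g and Ppp3ca and above them for Cblb. The mean of Malt1 is highest in activated Cre+ cells, whose values of 9.53 to 9.77 overlap those of Cre- baseline cells, 9.5 to 9.56.

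Among the receptor and coreceptor genes 4 of 7 fell in Cre+ cells, with a median of -0.50, and 1 of 7 in Cre- cells, with a median of -0.42. Cd3g, the gamma chain of CD3, read 10.22, 10.17 and 10.00 in activated Cre+ and 10.18, 10.29 and 9.96 in activated Cre- cells. Its baseline values were 10.92, 10.77 and 10.82 in Cre+ and 10.76, 10.85 and 10.74 in Cre- cells. Every activated array lay below every baseline array. Cd3g was 1.63-fold lower with activation in Cre+ cells (-0.71, SE 0.11, limma adjusted p = 0.000946) and 1.55-fold lower in Cre- cells (-0.64, SE 0.11, adjusted p = 0.00195).

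The other chains moved by similar or smaller amounts. Cd3e, the epsilon chain, read 10.15 to 10.70 in activated Cre+ and 10.46 to 10.80 in activated Cre- cells, against 10.99 to 11.12 in Cre+ and 10.97 to 11.14 in Cre- baseline cells. It fell by 0.60 in Cre+ cells (limma adjusted p = 0.012) and differed by -0.42 in Cre- cells (adjusted p = 0.0645), without overlap in either. Cd3d, the delta chain, fell by 0.80 in Cre+ cells (adjusted p = 0.0352) and differed by -0.53 in Cre- cells (adjusted p = 0.17), and array 3 was its lowest activated value in both genotypes, 7.92 in Cre+ and 8.18 in Cre- cells. The coreceptor Cd4 read 10.82 to 11.21 in activated Cre+ and 10.48 to 10.98 in activated Cre- cells, against 11.48 to 11.60 in Cre+ and 11.12 to 11.32 in Cre- baseline cells. It fell by 0.50 in Cre+ cells (adjusted p = 0.0286) and differed by -0.44 in Cre- cells (adjusted p = 0.053).

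Cd247, the zeta chain that bears most of the signalling motifs, was not called: it differed by 0.31 in Cre+ (limma adjusted p = 0.496) and 0.17 in Cre- cells (adjusted p = 0.75), and its groups overlapped. The adhesion receptor Cd2 was likewise not called, with differences of -0.27 in Cre+ and -0.18 in Cre- cells. Cd6, a scavenger receptor family member on T cells, differed by 0.22 in Cre+ cells, where the activated values of 9.26 to 9.36 all lay above the baseline values of 9.02 to 9.15 (adjusted p = 0.237), and by -0.14 in Cre- cells (adjusted p = 0.504). Of the constant genes of the receptor itself, 3 of 4 were measured, and Trac and Trbc2 fell in both genotypes, by 0.83 and 0.50 in Cre+ and 0.85 and 0.43 in Cre- cells. Their adjusted p values were 0.00227 and 0.00637 in Cre+ and 0.00209 and 0.0167 in Cre- cells, while Trbc1 was not called.

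Of the 9 kinases, phosphatases and regulators 4 fell in Cre+ cells, with a median of -0.37, and 3 in Cre- cells, with a median of -0.35. Lck, the kinase that starts the cascade, read 9.73, 9.88 and 9.40 in activated Cre+ and 9.75, 9.70 and 9.39 in activated Cre- cells, against 10.44, 10.26 and 10.39 in Cre+ and 10.05, 10.13 and 10.19 in Cre- baseline cells. All 6 activated arrays were below all 6 baseline arrays. It fell by 0.69 in Cre+ (SE 0.14, limma adjusted p = 0.00433) and by 0.51 in Cre- cells (SE 0.14, adjusted p = 0.0231).

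Zap70, the kinase that docks on the phosphorylated receptor, differed by -0.05 in Cre+ (limma adjusted p = 0.875) and 0.11 in Cre- cells (adjusted p = 0.661). Fyn, a kinase related to Lck, differed by -0.37 in Cre+ (adjusted p = 0.0665) and -0.35 in Cre- cells (adjusted p = 0.088). Txk, a Tec family kinase, differed by -1.33 in Cre+ (adjusted p = 0.112) and -1.42 in Cre- cells (adjusted p = 0.0961) without being called. Its activated values were 8.02, 8.48 and 7.24 in Cre+ and 8.63, 8.09 and 5.91 in Cre- cells, so that 1 array of Cre- cells stood far below the others, and its baseline values were 9.17 to 9.39 in Cre+ and 8.82 to 9.16 in Cre- cells.

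Pag1, a membrane adaptor that brings the inhibitory kinase Csk to the receptor, had the largest fall among those of these genes that were called. It read 5.99, 6.64 and 6.04 in activated Cre+ and 6.78, 6.44 and 6.16 in activated Cre- cells, against 7.48 to 7.72 in Cre+ and 7.63 to 7.73 in Cre- baseline cells. The states did not overlap, and Pag1 was 2.57-fold lower in Cre+ (-1.36, SE 0.19, limma adjusted p = 0.000423) and 2.32-fold lower in Cre- cells (-1.22, SE 0.19, adjusted p = 0.000962). Csk itself fell by 0.37 in Cre+ cells (adjusted p = 0.0184) and differed by -0.10 in Cre- cells (adjusted p = 0.574). Ptpn6, a phosphatase that dampens proximal signalling, fell by 0.61 in Cre+ (adjusted p = 0.00228) and by 0.47 in Cre- cells (adjusted p = 0.0107). The phosphatases Ptprc, which activates Lck, and Ptpn22, which inactivates it, were not called. Ptprc differed by -0.21 in Cre+ and -0.28 in Cre- cells, and Ptpn22 by -0.16 in Cre+ and -0.22 in Cre- cells.

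Of the 6 effectors 2 fell in both genotypes and 1 rose in Cre+ cells. Plcg1, the phospholipase C gamma of T cells, read 8.18, 8.63 and 7.75 in activated Cre+ and 8.67, 8.56 and 7.87 in activated Cre- cells, against 9.14 to 9.34 in Cre+ and 9.05 to 9.11 in Cre- baseline cells. It fell by 1.03 in Cre+ (SE 0.23, limma adjusted p = 0.00743) and by 0.72 in Cre- cells (SE 0.23, adjusted p = 0.0466), with array 3 lowest in both activated groups. Vav1, a guanine nucleotide exchange factor, fell by 0.50 in Cre+ (adjusted p = 0.00297) and by 0.39 in Cre- cells (adjusted p = 0.0128). Prkcq, the protein kinase C theta of the T cell synapse, differed by -0.64 in Cre+ (adjusted p = 0.0685) and -0.62 in Cre- cells (adjusted p = 0.0844). Rasgrp1, which loads Ras with GTP, differed by -0.69 in Cre+ (adjusted p = 0.148) and -0.54 in Cre- cells (adjusted p = 0.277). Bcl10, a partner of Malt1 on the way to NF-kappaB, differed by 0.06 in Cre+ and -0.02 in Cre- cells. Malt1, the effector that rose in Cre+ cells, is described with the difference of the responses.

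In the calcineurin and NFAT branch 2 of 5 members fell in each genotype. Ppp3ca, the alpha form of the catalytic subunit of calcineurin, read 6.73, 7.17 and 7.11 in activated Cre+ and 7.22, 6.80 and 6.65 in activated Cre- cells, against 8.36, 8.20 and 8.27 in Cre+ and 8.53, 8.45 and 8.55 in Cre- baseline cells. It was lower on all activated than on all baseline arrays, 2.41-fold in Cre+ (-1.27, SE 0.15, limma adjusted p = 0.000188) and 3.08-fold in Cre- cells (-1.62, SE 0.15, adjusted p = 3.84e-05). Ppp3cb, the beta form of the same subunit, differed by 0.01 in Cre+ (adjusted p = 0.944) and 0.05 in Cre- cells (adjusted p = 0.748). Nfatc2, one of the NFAT factors that calcineurin acts on, fell by 0.52 in Cre+ (adjusted p = 0.0112) and by 0.60 in Cre- cells (adjusted p = 0.00605). Its relatives were not called: Nfatc1 differed by -0.11 in Cre+ (adjusted p = 0.666) and -0.06 in Cre- cells (adjusted p = 0.844), and Nfatc3 by -0.64 in Cre+ (adjusted p = 0.0734) and -0.35 in Cre- cells (adjusted p = 0.372).

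All 5 members listed as restraint were called in both genotypes, 4 lower and 1 higher, beside 20.8% of all genes in Cre+ and 18.6% in Cre- cells. This list does not hold every member that restrains the signal. Of those placed in other roles above, Sit1, Pag1 and Ptpn6 fell in both genotypes, Csk was called in Cre+ cells only and Ptpn22 in neither. Cblb, a ubiquitin ligase known to raise the threshold for T cell activation, read 10.64, 10.83 and 10.22 in activated Cre+ and 10.79, 10.74 and 10.07 in activated Cre- cells. Its baseline values were 9.50, 9.52 and 9.41 in Cre+ and 9.66, 9.66 and 9.59 in Cre- cells. Every activated array was above every baseline array, with array 3 the lowest of each activated group. Cblb was 2.13-fold higher with activation in Cre+ cells (1.09, SE 0.19, limma adjusted p = 0.0022) and 1.86-fold higher in Cre- cells (0.89, SE 0.19, adjusted p = 0.00754).

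Its relative Cbl moved the other way, by -0.40 in Cre+ (limma adjusted p = 0.0328) and -0.55 in Cre- cells (adjusted p = 0.00741). Ubash3a, a partner of Cbl proteins, read 7.76, 7.74 and 7.61 in activated Cre+ and 7.98, 8.01 and 8.10 in activated Cre- cells, against 8.61, 8.46 and 8.40 in Cre+ and 8.48, 8.54 and 8.38 in Cre- baseline cells. It fell by 0.79 in Cre+ (SE 0.10, adjusted p = 0.000217) and by 0.43 in Cre- cells (SE 0.10, adjusted p = 0.0092). The diacylglycerol kinases Dgka and Dgkz, which remove the lipid that activates Rasgrp1, fell in both genotypes. Dgka fell by 0.99 in Cre+ (adjusted p = 0.0349) and 0.97 in Cre- cells (adjusted p = 0.0428), and Dgkz by 0.52 in Cre+ (adjusted p = 0.0264) and 0.48 in Cre- cells (adjusted p = 0.0423).

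Members differed more among the activated than among the baseline arrays. The median SD of a member was 0.248 in activated Cre+ and 0.246 in activated Cre- cells, against 0.0783 in Cre+ and 0.0668 in Cre- baseline cells. The median SD of all genes was 0.172 in activated Cre+ and 0.177 in activated Cre- cells, against 0.128 in Cre+ and 0.134 in Cre- baseline cells. Array 3 was the lowest of its group for 35 of 41 members in activated Cre+ cells (36.0% of all genes) and for 34 of 41 in activated Cre- cells (41%). The mean level of the 41 members was 8.81, 9.04 and 8.54 on the activated Cre+ arrays and 9.11, 9.02 and 8.58 on the activated Cre- arrays, against 9.35 to 9.44 in Cre+ and 9.43 to 9.46 in Cre- baseline cells. The mean of 29 cell cycle genes was 6.96, 6.27 and 8.35 on the activated Cre+ arrays and 6.33, 6.32 and 8.74 on the activated Cre- arrays, against 6.03 to 6.23 in Cre+ and 6.07 to 6.24 in Cre- baseline cells. On the activated Cre+ arrays the mean of 14 B cell markers was 6.26, 5.5 and 6.82. On the activated Cre- arrays it was 4.93, 5.35 and 6.18. Array 3 was thus lowest for the members and highest for the cell cycle genes and the B cell markers in both activated groups. The part of this in the results was not tested. Without both activated arrays numbered 3 the counts of members called were 27 in Cre+ cells, 25 lower and 2 higher, and 19 in Cre- cells, 17 lower and 2 higher.

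**Figure D3:**
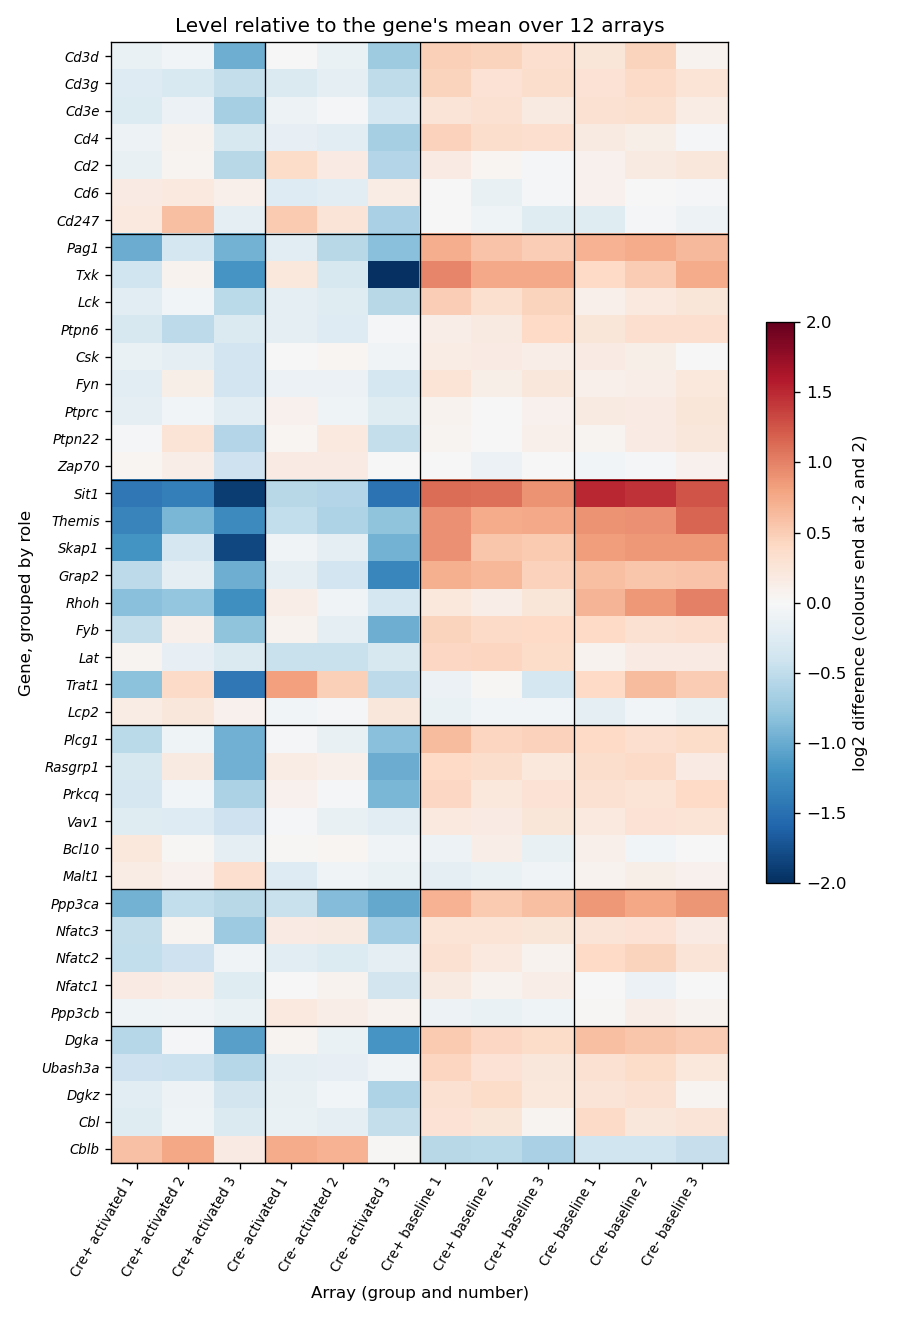
Level of every member on every array relative to the mean of that gene over the 12 arrays, in log2 units. Rows are genes grouped by role, columns are arrays in the order Cre+ activated, Cre- activated, Cre+ baseline and Cre- baseline, and red is above and blue below the mean of the gene. Array 3 of each activated group holds the lowest value of its group for most rows, 35 of 41 in Cre+ and 34 of 41 in Cre- cells.

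Markers of other cells also moved with activation. Of 14 B cell markers 9 fell in Cre+ and 13 in Cre- cells, and their mean level was 5.5 to 6.82 in activated Cre+ and 4.93 to 6.18 in activated Cre- cells, against 7.80 to 7.86 in Cre+ and 7.92 to 8.18 in Cre- baseline cells. Of 13 measured myeloid markers 11 fell in Cre+ and 12 in Cre- cells, with mean levels of 4.07 to 4.26 in activated Cre+ and 3.79 to 3.99 in activated Cre- cells, against 5.69 to 6.49 in Cre+ and 5.63 to 6.02 in Cre- baseline cells. Of 5 measured NK cell markers, 3 fell and 1 rose in Cre+ cells and 4 fell in Cre- cells. The 2 CD8 markers and the 5 measured erythroid and platelet markers were not called in either genotype. Ptprc, Ptpn6, Vav1 and several other members are also expressed in B and myeloid cells, and the part of these cells in the results was not tested.

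**Figure D4:**
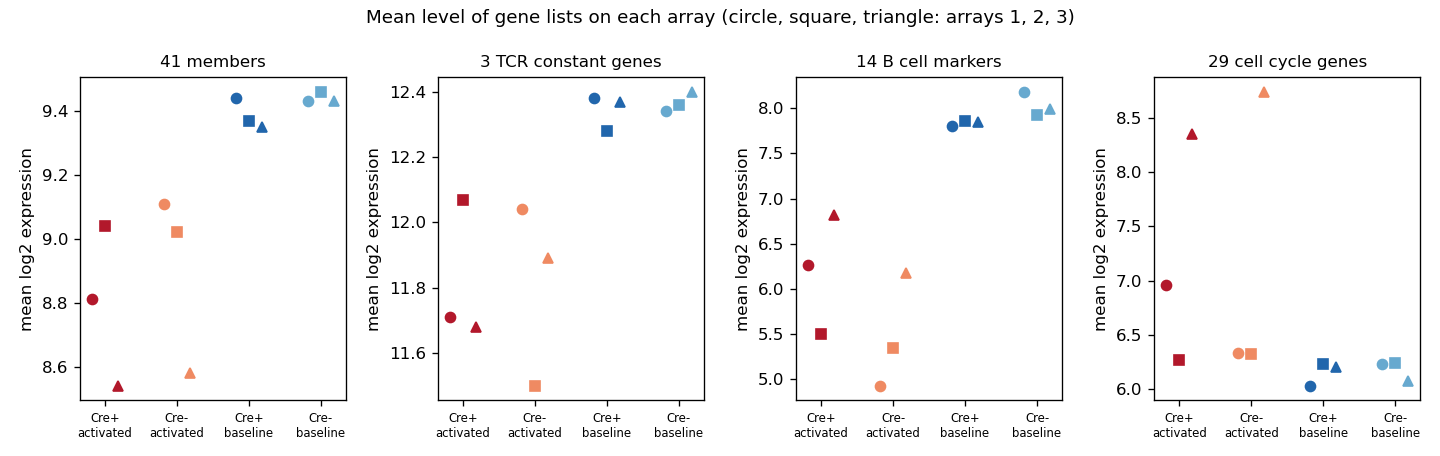
Mean log2 expression of 4 gene lists on each array (y axis, own scale per list): the 41 members, 3 receptor constant genes, 14 B cell markers and 29 cell cycle genes. Groups run from Cre+ activated, Cre- activated, Cre+ baseline to Cre- baseline, with circle, square and triangle for arrays 1, 2 and 3. Triangles in the activated groups are lowest for the members (8.54 in Cre+, 8.58 in Cre-) and highest for the cell cycle genes (8.35 in Cre+, 8.74 in Cre-). They are also highest for the B cell markers (6.82 in Cre+, 6.18 in Cre-).

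Between genotypes few members passed the test. After activation 1 of the 41 members, Rhoh, was called lower in Cre+ than in Cre- cells and none was called higher, beside 0.746% of all genes called, 0.0969% lower and 0.649% higher. At baseline limma called 0 members, beside 0.564% of all genes, 0.059% lower and 0.505% higher, and 3 members had an unadjusted p under 0.05, beside 1638 of 23740 genes. After activation 10 of 41 members had an unadjusted p under 0.05, beside 1789 of 23740 genes. The median member differed by -0.08 after activation and -0.03 at baseline, where the median of all genes was -0.01 and 0.00. After activation 7 members had all Cre+ values below all Cre- values (5.48% of all genes) and 2 had them all above (5.28%). The corresponding counts at baseline were 8 below (7.43%) and 6 above (8.82%). Both tests take each gene's spread from 1 fit to all 12 arrays, although members spread more on activated than on baseline arrays. An adjusted p or SE at baseline and one after activation are thus not like for like. With only the arrays compared, the limma adjusted p of Rhoh was 0.0338 at baseline and 0.323 after activation.

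**Figure D5:**
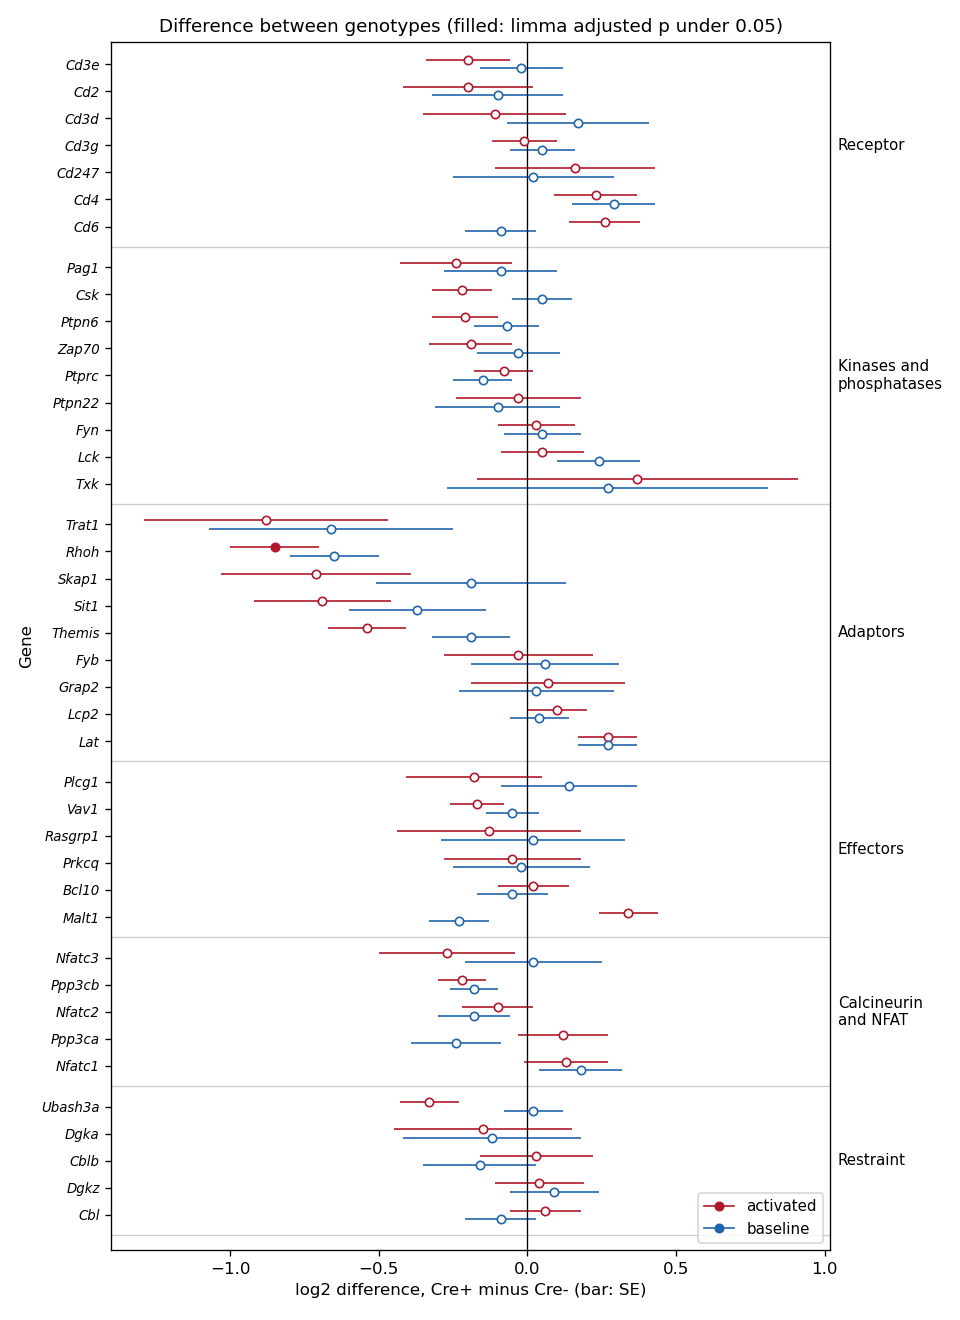
Difference between genotypes for the 41 members, grouped by role. The x axis is the log2 difference, Cre+ minus Cre-, in activated (red) and baseline cells (blue), bars are the SE of the model, and filled points have a limma adjusted p under 0.05. Rhoh after activation, at -0.85, is the filled point, and the adaptors Trat1, Skap1, Sit1 and Themis lie left of 0 in both states with open points.

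Rhoh, a haematopoietic protein that helps to bring Zap70 to the receptor, was the member with the smallest adjusted p between genotypes in both states. Its promoter window, shown above, did not hold TGGGAA. It read 6.56, 6.63 and 6.18 in activated Cre+ cells, against 7.54, 7.33 and 7.05 in activated Cre- cells. At baseline it read 7.61, 7.54 and 7.64 in Cre+ cells, against 8.08, 8.27 and 8.41 in Cre- cells. The genotypes did not overlap in either state, and activated cells lay below baseline cells within each genotype. Rhoh was 1.80-fold lower in activated Cre+ than in activated Cre- cells (-0.85, SE 0.15, limma adjusted p = 0.0276), and its difference at baseline was -0.65 (SE 0.15, adjusted p = 0.121).

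The call of Rhoh after activation was kept in 12 of 21 alternatives. It was lost with only the arrays compared (limma adjusted p = 0.323) and in 8 of 12 fits without 1 array. Its adjusted p was 0.0894 and 0.0921 without activated Cre+ array 1 or 3, 0.114 and 0.116 without activated Cre- array 1 or 2, 0.0516, 0.0531 and 0.0509 without Cre+ baseline array 1, 2 or 3, and 0.0509 without Cre- baseline array 2. Over these fits the difference stayed between -0.98 and -0.71. In a comparison added after the data were seen, the genotype difference averaged over both states, Rhoh was the 1 member called, at -0.75 (SE 0.11, adjusted p = 0.00384), beside 1.5% of all genes called, 0.333% lower and 1.17% higher. That call was kept in all 20 alternatives. With activation Rhoh fell by 1.14 in Cre+ (SE 0.15, adjusted p = 0.000393) and by 0.94 in Cre- cells (SE 0.15, adjusted p = 0.00141).

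A further 4 adaptors had negative differences between genotypes that did not pass the test. Themis differed by -0.54 after activation (SE 0.13, limma adjusted p = 0.138), without overlap, and by -0.19 at baseline (adjusted p = 0.952). Sit1 differed by -0.69 after activation (SE 0.23, adjusted p = 0.341) and by -0.37 at baseline (adjusted p = 0.896), where its genotypes did not overlap. Trat1 read 7.19, 8.39 and 6.58 in activated Cre+ and 8.83, 8.49 and 7.48 in activated Cre- cells, and 7.90, 8.03 and 7.66 in Cre+ against 8.41, 8.65 and 8.52 in Cre- baseline cells. Its genotypes overlapped after activation and were apart at baseline, with differences of -0.88 (SE 0.41, adjusted p = 0.673) after activation and -0.66 (SE 0.41, adjusted p = 0.897) at baseline. Skap1 differed by -0.71 after activation (adjusted p = 0.641) and -0.19 at baseline (adjusted p = 1). With array weights all 4 were called after activation, among 11 members called. That setting called 2662 of 23740 genes, against 177 in the main fit. Sit1 was also called without activated Cre- array 3 and without both activated arrays numbered 3, and Themis without activated Cre+ array 2. In each of these fits 2 members were called, beside 308, 243 and 229 of all genes in that order.

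Lat lay on the other side. It read 10.38, 10.17 and 10.04 in activated Cre+ cells, against 9.89, 9.88 and 10.02 in activated Cre- cells, and 10.75, 10.76 and 10.70 in Cre+ against 10.41, 10.49 and 10.5 in Cre- baseline cells. The Cre+ arrays lay above the Cre- arrays in both states, with a difference of 0.27 in each (SE 0.10, limma adjusted p = 0.486 after activation and 0.563 at baseline). The coreceptor Cd4 differed by 0.23 after activation (adjusted p = 0.853) and by 0.29 at baseline (adjusted p = 0.764), where its genotypes did not overlap. Lck differed by 0.05 after activation (adjusted p = 1) and 0.24 at baseline (adjusted p = 0.872), and its genotypes did not overlap at baseline. The calcineurin subunit Ppp3cb was lower on all Cre+ arrays than on all Cre- arrays of the same state, with differences of -0.22 after activation (adjusted p = 0.482) and -0.18 at baseline (adjusted p = 0.74).

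The 4 measured chains of the CD3 and zeta complex showed small genotype differences, from -0.20 to 0.16 after activation and from -0.02 to 0.17 at baseline, and limma called 0 of 4, none of them at an unadjusted p under 0.05. Among B cell markers the median difference was 0.77 after activation and -0.18 at baseline, with 0 of 14 called in either state. After activation 13 of the 14 were higher in Cre+ cells and 6 had an unadjusted limma p under 0.05, beside 1789 of 23740 genes. At baseline 13 were lower and 1 had such a p, beside 1638 of 23740 genes. For the difference of the responses 7 of 14 had such a p, beside 1112 of 23740 genes, and 0 were called. Of the 13 myeloid markers 1, Itgam, was higher in Cre+ cells at baseline, by 2.73 (limma adjusted p = 0.000349). The part of these markers in the genotype differences was not tested.

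Whether the activation response depended on genotype was tested as the difference of the 2 responses. Limma called 0 of 41 members, beside 0.00842% of all genes, and 2 members had an unadjusted p under 0.05, Malt1 and Ubash3a (4.68% of all genes). Of the members, 6 were called with activation in Cre+ and not in Cre- cells, Cd3e, Cd3d, Cd4, Csk and Fyb lower and Malt1 higher, and none of them was called in the test of the difference. Malt1, the protease that passes the signal on to NF-kappaB, read 9.58, 9.53 and 9.77 in activated Cre+ and 9.18, 9.37 and 9.31 in activated Cre- cells, against 9.24, 9.31 and 9.36 in Cre+ and 9.50, 9.56 and 9.53 in Cre- baseline cells. Activated arrays lay above baseline arrays in Cre+ cells and below them in Cre- cells, and the genotypes did not overlap in either state.

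Malt1 rose by 0.32 with activation in Cre+ cells (SE 0.10, limma adjusted p = 0.0367) and differed by -0.24 in Cre- cells (SE 0.10, adjusted p = 0.117). The difference of the responses was 0.57 (SE 0.14, unadjusted p = 0.00168, adjusted p = 0.442), and its adjusted p ran from 0.0845 to 0.868 over 20 alternatives. The rise in Cre+ cells was lost in 10 of 21 alternatives, with adjusted p up to 0.153. Between genotypes Malt1 differed by 0.34 after activation (adjusted p = 0.223), which was called with array weights (0.26, adjusted p = 0.0468), and -0.23 at baseline (adjusted p = 0.685). Array weights called 2662 of 23740 genes in that comparison after activation. For Ubash3a the difference of the responses was -0.35 (SE 0.14, unadjusted p = 0.0256, adjusted p = 0.984), and its genotype differences were -0.33 after activation (adjusted p = 0.241), without overlap, and 0.02 at baseline (adjusted p = 1).

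A further 74 genes of the T cell receptor pathway, none of them a member, were all measured. With activation 19 fell (25.7%) and 12 rose (16.2%) in Cre+ cells, at a median log2 difference of -0.06, beside 10.6% and 10.2% of all genes. In Cre- cells 19 fell (25.7%) and 9 rose (12.2%), at a median of -0.14, beside 9.14% and 9.44% of all genes. In Cre+ cells the smallest adjusted p values among falls belonged to Itpr3, a calcium channel of the endoplasmic reticulum (-1.64), Sla2, an adaptor that dampens the receptor (-1.93), Stim1, the calcium sensor of that store (-0.93), and Pik3r1, a regulatory subunit of PI3 kinase (-0.90). Among rises they belonged to Tagap, a GTPase-activating protein of T cells (1.45), Traf6, a ubiquitin ligase (0.99), Grap, an adaptor related to Grap2 (0.57), and Ptpn2, a phosphatase (0.63). The limma adjusted p values of these 8 genes ran from 2.77e-05 to 0.0019.

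In Cre- cells the corresponding falls were Pik3r1 (-1.23), Itpr3 (-1.38), Tespa1, a thymocyte-expressed regulator of receptor signalling (-1.58), and Nck2, a cytoskeletal adaptor (-0.76). The rises were Traf6 (1.05), Tagap (1.24), Grap (0.74) and Ppp3cc, the gamma form of the calcineurin subunit (1.14), and the limma adjusted p values of these 8 ran from 8.16e-05 to 0.00382. Between genotypes 2 of the 74 (2.7%) were higher in activated Cre+ than in activated Cre- cells, beside 0.649% of all genes. They were Nfat5, an NFAT relative that does not need calcineurin (0.69, SE 0.13, adjusted p = 0.0278), and Nck2 (0.56, SE 0.11, adjusted p = 0.0446). An unadjusted p under 0.05 was found for 8 of the 74 after activation, beside the 1789 of 23740 genes given above. At baseline limma called 0 of 74, with 8 at an unadjusted p under 0.05, beside 1638 of 23740 genes, and for the difference of the responses 0 of 74, with 4 at an unadjusted p under 0.05, beside 1112 of 23740 genes.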

How the data were processed

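Per the submitters' processing notes, the authors made the deposited log2 values with RMA in affy 1.36.1 and R 2.15.1, from single-colour Mouse Gene arrays hybridised with biotin-labelled total RNA. The chip definition file is not given in the sources used here. All columns of the table had a sample. Of 25206 probe sets, 23185 were paired with 1 gene by the platform annotation and 555 more, Lck among them, by their gene number in RefSeq, and the other 1466 were left out.

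A limma model (limma 3.58.1, R 4.3.3) with 4 group means and no covariates was fitted to the 12 deposited log2 columns (8 residual and 3.54 prior degrees of freedom). SE values are the moderated ones. Simulated data with 23740 genes were tested for Cre+ against Cre- after activation. Of 100 genes planted at 2-fold 79 were recovered, and of 100 at 4-fold 98, with 6 false calls. These figures describe the simulated data only, in which each gene had the same spread in all 4 groups. Whether they hold for the deposited arrays was not tested. There the median SD of a member was 0.248 in activated Cre+ and 0.246 in activated Cre- cells. It was 0.0783 in Cre+ and 0.0668 in Cre- baseline cells.

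Members and lists were chosen with earlier results of these data known. Named genes were the members, Ikzf1, marker, cell cycle and activation check genes, and up to 4 pathway genes a direction with the smallest adjusted p in a comparison. Alternatives were a replicate block, array weights, robust moderation with a variance trend, a mean level of at least 5, all probe sets, median centring, quantile normalization, only the arrays compared, leaving out both activated arrays numbered 3, and leaving out each array in turn. The genotype difference averaged over both states was added after the data were seen.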

Additional observations from a re-analysis of the deposited data

How the results depend on the processing

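No called result of a member changed direction under any alternative, and 16 of the 25 calls with activation in Cre+ cells and 13 of the 19 in Cre- cells held in all 21. Leaving out each array gave 17 to 30 members in Cre+ and 14 to 24 in Cre- cells, and the other alternatives 21 to 33 and 15 to 27. Without activated Cre+ array 3, or without Cre+ baseline array 1 or 2, 17 were called in Cre+ cells, and Cd3d, Cd4, Csk, Fyb, Malt1, Cbl, Dgka and Dgkz were lost. In Cre- cells 14 were called without activated Cre- array 3 or without Cre- baseline array 2 or 3, and Lck, Skap1, Plcg1, Dgka and Dgkz were lost. After activation, the genotype count of 1 member became 11 with array weights (Cd6, Lat and Malt1 higher, Rhoh, Pag1, Themis, Skap1, Trat1, Sit1, Nfatc3 and Ubash3a lower), 0 with only the arrays compared and 2 without both activated arrays numbered 3, and lay between 0 and 2 with 1 array left out. At baseline the count of 0 became 1, Rhoh, with array weights, with only the arrays compared and without both activated arrays numbered 3. The averaged genotype difference, 1 member, gave 7 with array weights, 3 without both activated arrays numbered 3, and 1 to 3 with 1 array left out. The difference of the responses gave 0 throughout. The cause of these changes was not tested. Over all genes the count after activation ranged from 11 with only the arrays compared to 2662 with array weights around its 177, the baseline count from 55 to 330 around 134, the count with activation in Cre+ cells from 3246 to 8600 around 4942, the averaged count from 232 to 1545 around 357 and the count for the difference of the responses from 0 to 157 around 2.

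Between the activated groups, the deviations of arrays numbered 2 and 3 correlated at 0.57 and 0.73, each best with its own number, and those numbered 1 at -0.04. In the other comparisons same-numbered arrays correlated at -0.10 to 0.16. Not every array correlated best with its own number, and the main fit did not pair arrays by number. The replicate block puts the same effect of a number on both states, so a pairing within the activated state alone was not tested. With the replicate block the counts were 27 with activation in Cre+ and 23 in Cre- cells, 1 and 0 between genotypes after activation and at baseline, 0 for the difference of the responses and 2 for the averaged difference, Rhoh and Sit1. Median centring moved the median of all genes by at most 0.0825 and quantile normalization by at most 0.0308.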
